A study of Mus musculus with 19 samples.

Results

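Retinoid metabolism and signaling was followed through 9 genes in bulk RNA sequencing of the cornea and conjunctiva of mice fed ad libitum (AL) or under calorie restriction (CR). The 9 genes, *Dhrs3*, *Rdh10*, *Aldh1a3*, *Rara*, *Rarb*, *Rarg*, *Crabp2*, *Stra6* and *Cyp26b1*, were picked by symbol from the 24552 genes of both tables, as a set around *Dhrs3*, which was known to be lower under CR in both tissues. The values of *Dhrs3* are therefore given as a description, with no test. Each of the 9 had a mean of at least 10 normalised counts over the libraries of either tissue, so all entered the comparisons, *Crabp2* in the cornea only through its CR libraries. A normalised count is a gene's read count divided by its library's size factor.

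The animals of all 4 groups were C57BL/6 mice, and the study's methods describe them as C57BL/6J females with no transgene or drug. The groups were 5 cornea AL, 5 cornea CR, 4 conjunctiva AL and 5 conjunctiva CR libraries, numbered in the sample titles. Library values are listed in the order of those numbers, which were 1 to 5 in cornea AL and conjunctiva CR, 1, 2, 3, 4 and 7 in cornea CR, and 1, 3, 4 and 5 in conjunctiva AL. Those titles also carry 6M and 50W, which the labels do not explain, and by the study's methods the reduced ration began in adult mice and was given once a day, just before the dark phase. Corneal epithelium was scraped and conjunctiva was cut out whole, and by the methods several tissues were taken from a mouse. Title numbers recur in both tissues within a diet, so cornea and conjunctiva libraries may share animals. The methods describe a pair of cohorts, and in one of them the CR chow carried added vitamins and micronutrients. The libraries are not tied to a cohort in the labels, so a smaller ration, its timing and a different vitamin supply cannot be told apart in these values. P-values set a difference only against the spread between these libraries.

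Vitamin A reaches cells as retinol, which is oxidised to retinal and then to retinoic acid, the ligand of the nuclear receptors RARα, RARβ and RARγ. These receptors sit on DNA with an RXR partner, at paired copies of a short hexamer, and switch on genes that include some of the pathway's own enzymes and receptors. The ocular surface depends on this supply: in vitamin A deficiency the conjunctiva loses goblet cells and the epithelium keratinises. RDH10 oxidises retinol to retinal, DHRS3 reduces retinal back to retinol, ALDH1A enzymes make retinoic acid, CRABP2 carries it to the receptors and CYP26 enzymes break it down.

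The stretches before the start sites of *Dhrs3* and *Rarb* are shown because both genes are known to be induced by retinoic acid, yet only one of them was picked for a lower level here. RefSeq promoter windows on GRCm38.p6, 250 bases before to 50 after each start, were found for 6 of the 9 genes (15 windows). They were searched on both strands for the receptor hexamer AGGTCA, for its variant AGTTCA, for GGGTCA as the next variant and for GGTTCA as the last, and for a pair of them in the same direction with 1, 2 or 5 bases between. Capitals mark such a pair, and each sequence is the 250 bases before the start, 5′ to 3′ on the gene's strand.
*Dhrs3*, chr4:144892577-144892826, + strand: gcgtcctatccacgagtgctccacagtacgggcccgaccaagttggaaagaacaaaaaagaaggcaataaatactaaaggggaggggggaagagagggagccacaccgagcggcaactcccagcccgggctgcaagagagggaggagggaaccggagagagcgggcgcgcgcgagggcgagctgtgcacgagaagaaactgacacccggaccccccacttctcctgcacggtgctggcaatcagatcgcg
*Rarb*, chr14:16575477-16575726, − strand: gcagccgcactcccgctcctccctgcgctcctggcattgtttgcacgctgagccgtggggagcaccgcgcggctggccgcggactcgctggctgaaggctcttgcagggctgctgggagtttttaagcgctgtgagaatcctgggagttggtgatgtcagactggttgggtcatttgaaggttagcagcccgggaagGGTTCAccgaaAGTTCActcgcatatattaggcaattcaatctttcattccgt
The *Rarb* window held 1 pair, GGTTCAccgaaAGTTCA, with 5 bases between its hexamers and its first base 53 bases before the start. A pair with that spacing was found in 0.0975% of the 32817 windows of all genes, and a pair with any of the 3 spacings in 0.588%. None of the 3 *Dhrs3* windows held a pair or a single hexamer, although 43.7% of all windows held at least 1 hexamer. These are matches of letters only. No deposited value here shows binding at either stretch.

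*Dhrs3* (gene identifier 20148), the retinal reductase, was lower in every CR library than in every AL library of the same tissue. In the cornea the AL libraries held 675, 768, 1088, 681 and 874 normalised counts and the CR libraries 473, 449, 470, 511 and 381. Conjunctiva AL libraries held 1516, 1527, 1466 and 1298 and the CR libraries 919, 964, 917, 953 and 1020. The CR values lay close together in both tissues, with no overlap of the groups. Group means were 817 ± 172 and 457 ± 48.0 in the cornea (SD, n = 5 each), a log2 change from AL to CR of −0.82 ± 0.14 (SE). In the conjunctiva they were 1452 ± 106 (n = 4) and 954 ± 41.9 (n = 5), a log2 change of −0.60 ± 0.12. These are the values that chose the set. For scale, all CR libraries lay below all AL libraries for 1.89% of the 12278 genes tested in the cornea and 1.95% of the 13929 tested in the conjunctiva.

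**Figure D1:**
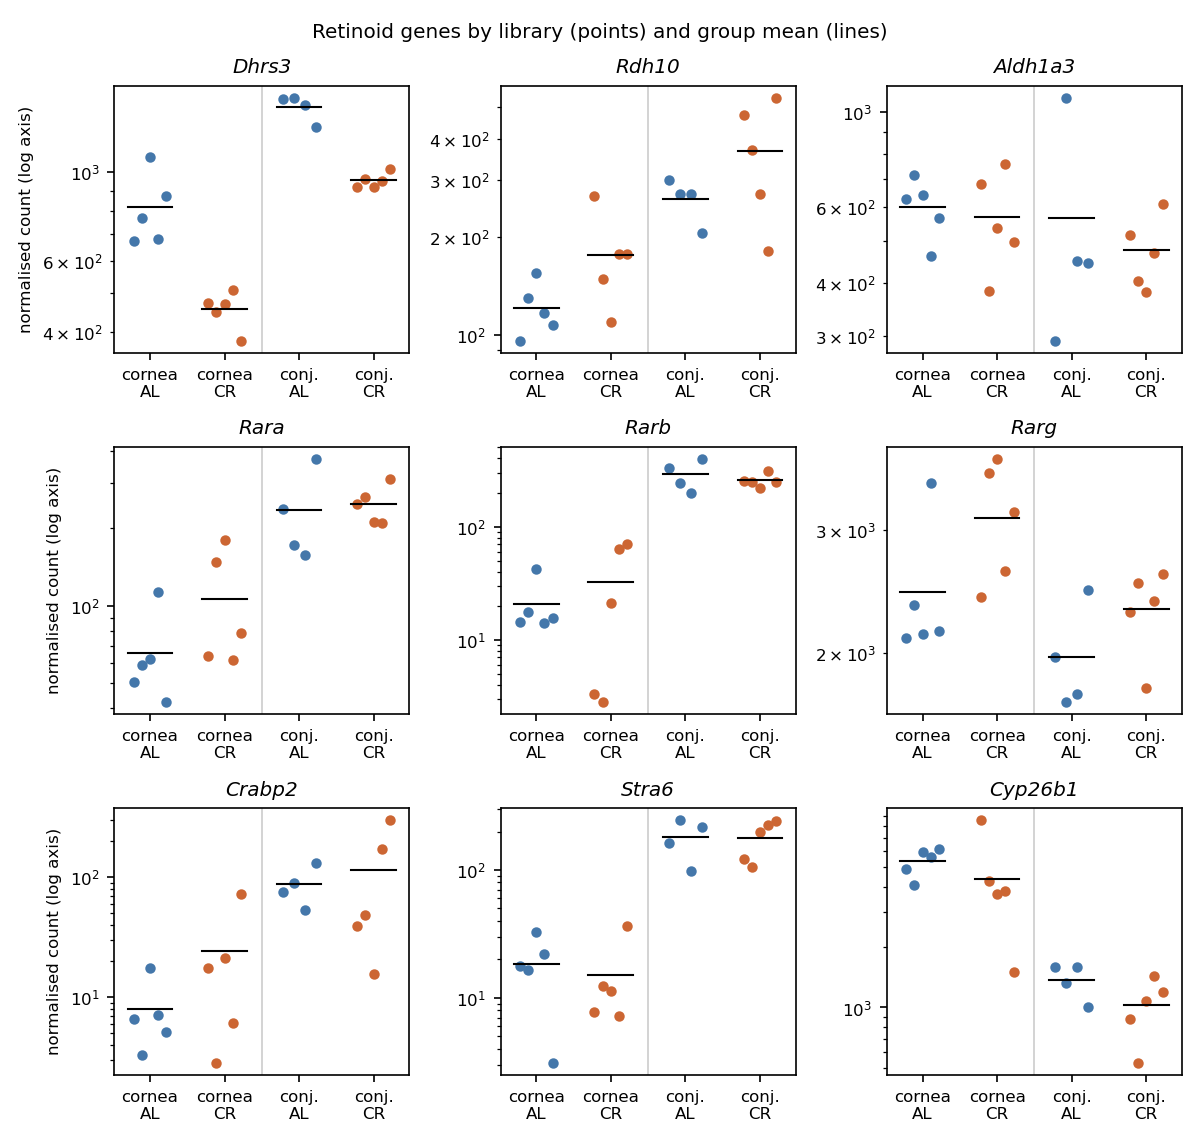
Normalised counts (log axis) of the 9 retinoid genes in each library, with AL points in blue, CR points in orange and the group mean as a line. The *Dhrs3* points of CR lie between 381 and 511 (cornea) and between 917 and 1020 (conjunctiva), below all AL points of the same tissue, and the AL and CR points of the other 8 genes overlap.

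Of the other 8 genes, none passed the test of the diet in either tissue. The test was limma on log2(normalised count + 1), and a call needed an adjusted p under 0.05 over all genes and a fold over 1.5. That call was made for 1.22% of all genes in the cornea (0.749% higher and 0.472% lower under CR) and for 0.359% in the conjunctiva (0.223% higher and 0.136% lower). At an unadjusted p under 0.05 there were 2 of the 8 genes in the cornea, *Rdh10* and *Rarg*, and 0 in the conjunctiva, where all genes gave 18.1% and 9.4%. A fit with limma's voom to the recovered reads called 0 of the 8 in both tissues as well.

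*Rdh10* (98711), the retinol dehydrogenase that works against DHRS3, had its higher means under CR, with wide spread. Its cornea AL libraries held 95.7, 130, 155, 117 and 107 normalised counts and the CR libraries 267, 149, 109, 177 and 177. Conjunctiva libraries held, under AL, 300, 272, 271 and 205 and, under CR, 475, 371, 271, 180 and 534. The groups overlapped in both tissues through 2 CR libraries each, cornea replicates 2 and 3 and conjunctiva replicates 3 and 4. The log2 change was 0.50 ± 0.23 in the cornea (limma, adjusted p = 0.262) and 0.39 ± 0.27 in the conjunctiva (limma, adjusted p = 0.698), the latter 0.23 without CR replicate 5 and 0.62 without CR replicate 4.

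The reads of this opposed pair of enzymes were also set against each other inside each library. The cornea AL libraries held 14.2, 16.9, 14.2, 17.1 and 12.2 *Rdh10* reads per 100 *Dhrs3* reads, and the CR libraries 56.5, 33.1, 23.2, 34.6 and 46.6. For the conjunctiva the ratio was 19.8, 17.8, 18.5 and 15.8 under AL and 51.7, 38.5, 29.6, 18.9 and 52.4 under CR. The groups did not overlap in the cornea, and in the conjunctiva 1 CR library, replicate 4, fell among the AL libraries. Means were 14.9 ± 2.07 for AL and 38.8 ± 12.9 for CR in the cornea, and 18.0 ± 1.65 and 38.2 ± 14.4 in the conjunctiva. The ratio contains *Dhrs3*, whose fall picked the set, so a gap between diets was in part set in advance. It is given as a description, without a test.

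**Figure D2:**
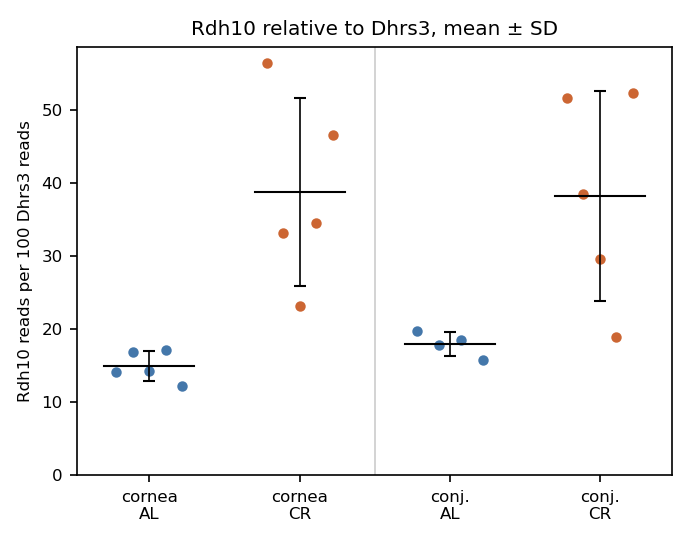
*Rdh10* reads per 100 *Dhrs3* reads in each library (points: blue AL, orange CR), with the group mean and SD. The AL libraries sit between 12.2 and 19.8 in both tissues and the CR libraries between 18.9 and 56.5.

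*Aldh1a3* (56847), which oxidises retinal to retinoic acid, had overlapping diet groups in both tissues by its own normalised counts. The cornea libraries ranged from 462 to 716 normalised counts under AL (median 627) and from 383 to 758 under CR (median 536). In the conjunctiva AL replicate 3 stood apart at 1080, with the other AL libraries at 293, 451 and 445, and the CR libraries lay at 516, 405, 380, 470 and 611. The log2 change was −0.10 ± 0.17 (cornea) and −0.10 ± 0.31 (conjunctiva), and without conjunctiva AL replicate 3 the latter became 0.27. *Stra6* (20897), the membrane receptor that takes up retinol from its plasma carrier, was at a low level in the cornea. Its cornea means were 18.4 ± 10.7 normalised counts under AL and 14.9 ± 12.1 under CR, and the highest single values were 32.7 in AL replicate 3 and 36.2 in CR replicate 7. In the conjunctiva the AL libraries ran from 99.0 to 246 and the CR libraries from 105 to 243, nearly the same range, with a log2 change of −0.02 ± 0.31.

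*Crabp2* (12904), the carrier that brings retinoic acid to its receptors, varied more between libraries of a group than any other of the 9 in the conjunctiva under CR. The cornea AL libraries held 6.60, 3.28, 17.5, 7.07 and 5.15 normalised counts and the CR libraries 17.5, 2.83, 21.2, 6.13 and 72.4, where a floor of 3 reads equals 2.27 to 3.37 normalised counts over all libraries. The conjunctiva AL libraries held 75.6, 88.7, 52.7 and 131 and the CR libraries 39.0, 48.5, 15.4, 170 and 298. CR replicates 4 and 5 of the conjunctiva lay above all AL libraries and CR replicates 1, 2 and 3 below them. The cornea means were 7.91 under AL and 24.0 under CR, so the gene passed the filter of 10 only through its CR libraries, and without CR replicate 7 it fell below the filter and could not be fitted. With all libraries its cornea log2 change was 0.96 ± 0.85 (limma, adjusted p = 0.577). In the conjunctiva the mean was higher under CR, at 114 ± 119 against 86.9 ± 32.8, while the fitted log2 change was −0.26 ± 0.79 (limma, adjusted p = 0.949).

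Among the receptors, *Rarg* (19411), the RARγ gene of epithelia, had the smallest spread between cornea libraries. Its cornea AL libraries held 2096, 2343, 2127, 3497 and 2150 normalised counts and the CR libraries 2405, 3620, 3785, 2621 and 3179. All CR libraries lay above 4 of the 5 AL libraries, and the fifth, AL replicate 4, lay above 3 CR libraries. The log2 change was 0.36 ± 0.16 (limma, adjusted p = 0.234), and without AL replicate 4 it was 0.50 with an adjusted p of 0.0295 and a fold still below 1.5. Conjunctiva AL libraries held 1970, 1700, 1747 and 2461 and the CR libraries 2286, 2516, 1780, 2369 and 2593, a log2 change of 0.23 ± 0.15 (limma, adjusted p = 0.679).

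*Rara* (19401), which encodes RARα, followed a like order of libraries in the cornea. The AL libraries held 50.6, 59.0, 62.2, 113 and 42.2 normalised counts and the CR libraries 63.5, 148, 180, 61.3 and 78.0. The high values were again AL replicate 4 and CR replicates 2, 3 and 7, the cornea libraries with the highest zero-gene share, the percentage of genes with 0 reads. It was 45.2% in AL replicate 4 and 46.1%, 45.6% and 47.6% in those CR libraries, against 38.7% to 42.7% elsewhere. With that share as a model term, the cornea log2 change of *Rara* went from 0.63 ± 0.34 to 0.09 and that of *Rarg* to 0.02, and its part in the result was not tested further. In the conjunctiva *Rara* ran from 158 to 372 under AL and from 210 to 311 under CR, a log2 change of 0.16 ± 0.24.

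*Rarb* (218772), the receptor gene with the paired hexamer shown above, was scarce in the cornea. Its cornea AL libraries held 14.3, 17.5, 42.6, 14.1 and 15.4 normalised counts and the CR libraries 3.29, 2.83, 21.2, 63.4 and 69.7. Under CR it was thus below all AL libraries in replicates 1 and 2, at 3 reads each, and above all of them in replicates 4 and 7. The mean was 20.8 under AL and 32.1 under CR, while the fitted log2 change was −0.18 ± 0.80, and it turned positive, to 0.11, with a pseudocount of 10. Its conjunctiva AL libraries held 328, 245, 199 and 394 and the CR libraries 250, 248, 218, 310 and 249, a log2 change of −0.15 ± 0.21. Exons of *Top2b* and *Gm48162* overlap those of *Rarb* on the opposite strand in the GENCODE M21 annotation, and whether counting used strand is not given in the sources used here, so its reads may hold theirs. The exons of the other 8 genes overlapped no other gene.

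*Cyp26b1* (232174), which breaks retinoic acid down, had lower means under CR in both tissues and did not pass the test. The cornea AL libraries held 4889, 4063, 5984, 5634 and 6179 normalised counts and the CR libraries 8596, 4280, 3675, 3807 and 1498. CR replicate 1 was the highest and CR replicate 7 the lowest of all 10. The log2 change was −0.48 ± 0.40 (limma, adjusted p = 0.558), −0.15 without CR replicate 7, −0.78 without CR replicate 1 and −0.011 with the zero-gene share as a model term. Its conjunctiva AL libraries held 1589, 1325, 1595 and 1003 and the CR libraries 875, 529, 1082, 1430 and 1200, a log2 change of −0.48 ± 0.26 (limma, adjusted p = 0.590), and −0.26 without CR replicate 2.

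**Figure D3:**
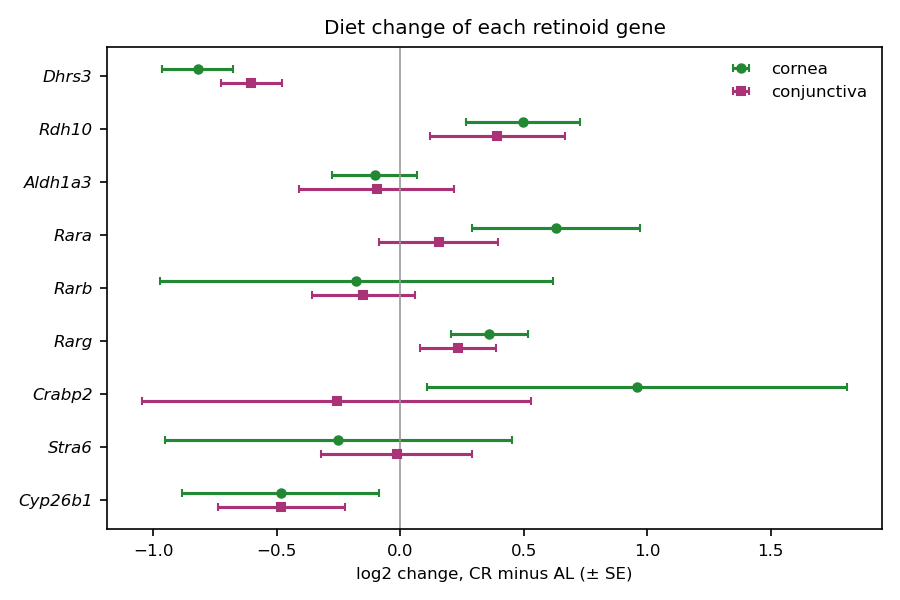
Log2 change from AL to CR (x axis) of the 9 retinoid genes, in the cornea (circles) and the conjunctiva (squares), with bars of 1 SE. *Dhrs3* sits at −0.82 and −0.60, and the widest bars, those of *Crabp2* and *Rarb* in the cornea, are 0.85 and 0.80.

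No difference between the tissues in the diet change of the 8 genes passed its own test: 0 of 8 were found at an adjusted p under 0.05 in limma, and 0 at an unadjusted p under 0.05, where 0.0168% and 7.48% of all 11929 genes did. That test treated libraries as independent, although the tissues may share animals. For *Dhrs3* the cornea change was lower than the conjunctiva change by −0.22 ± 0.19, untested. The means of several genes lay farther apart between the tissues than between the diets. Levels across tissues are given in RPM (reads-per-million of counted reads), since each table was scaled on its own, and are not tested. *Cyp26b1* stood at 462 ± 79.9 in cornea AL and 117 ± 25.1 in conjunctiva AL. *Rarb* went the other way, with 1.81 ± 1.10 and 24.7 ± 7.33. *Stra6* stood at 1.59 ± 0.949 and 15.2 ± 5.24, and *Crabp2* at 0.688 ± 0.496 and 7.34 ± 2.70. The tissues lay closer for *Dhrs3* (70.7 ± 16.0 and 123 ± 9.63), *Rarg* (211 ± 51.2 and 167 ± 29.1) and *Aldh1a3* (52.0 ± 8.19 and 47.7 ± 28.6). *Rara* had 5.65 ± 2.40 and 19.9 ± 8.20, and *Rdh10* had 10.4 ± 2.13 and 22.2 ± 3.61. In order of mean level, *Dhrs3* ran from conjunctiva AL over conjunctiva CR (75.9 ± 3.01) and cornea AL to cornea CR (39.8 ± 4.88). The conjunctiva CR libraries, at 71.3 to 79.5 RPM, lay within the range of the cornea AL libraries, 57.3 to 96.3.

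The genes whose library values lay nearest to those of *Dhrs3* were *Dbnl*, *Polb*, *Farsb*, *Sphk2* and *Rsrp1*. Likeness was the root mean square difference in log2 values, centred in each tissue, over the 19 libraries and 11928 other genes. It was 0.19 for *Dbnl*, 0.20 for *Polb*, 0.22 for *Farsb*, 0.22 for *Sphk2* and 0.23 for *Rsrp1*. *Dbnl*, an actin-binding adaptor, had a mean of 1628 ± 180 under AL and 1083 ± 131 under CR in the cornea, and 1071 ± 105 and 753 ± 57.8 in the conjunctiva. *Polb*, a DNA repair polymerase, had 1351 ± 101 and 870 ± 63.0, then 681 ± 38.6 and 512 ± 34.0. For both of them the groups lay apart in either tissue, as for *Dhrs3*. The other retinoid genes lay farther off, the nearest being *Cyp26b1* at 0.49 and *Aldh1a3* at 0.50, against a median of 0.52 over the genes compared. The measure includes the diet difference, and it is a description.

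The rest of the pathway was read from 7 lists of 105 genes in all. In the cornea 60 of them passed the filter and 3 were called, 2 higher and 1 lower under CR, where 1.22% of all genes were called. At an unadjusted p under 0.05 there were 15 of the 60, where all genes gave 18.1%. In the conjunctiva 72 passed it and limma called 0, with 14 at an unadjusted p under 0.05, where all genes gave 9.4%, and 0 by voom. The median log2 change over the listed genes was 0.03 in both tissues, beside −0.03 over all genes tested in the cornea and −0.02 in the conjunctiva.

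**Figure D4:**
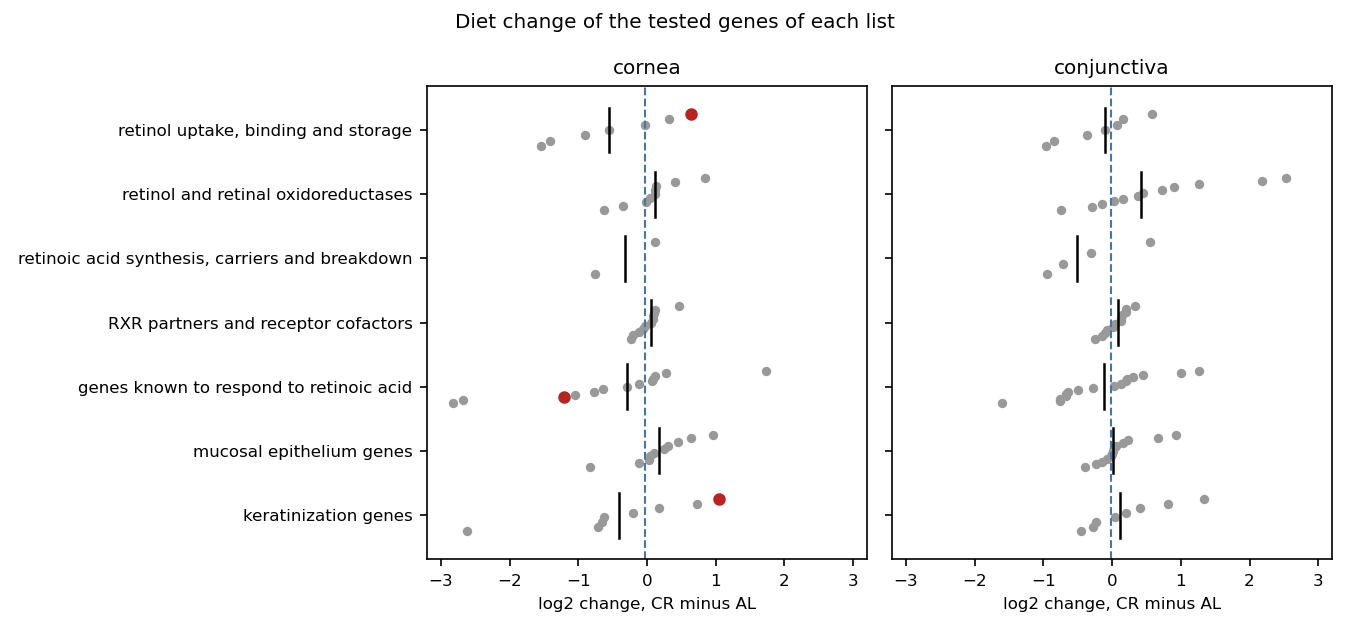
Log2 change from AL to CR (x axis) of each tested gene of the 7 lists in the cornea and the conjunctiva, with called genes in red, other genes in grey, the list median as a black line and the median of all genes tested as a dashed line. The called genes are *Scarb1* at 0.65, *Tgm2* at −1.20 and *Casp14* at 1.04, all in the cornea.

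Among genes known to respond to retinoic acid, *Tgm2* was called lower under CR in the cornea. It encodes tissue transglutaminase, an enzyme that crosslinks proteins and a classical retinoic acid target. The cornea AL libraries held 8416, 7695, 7465, 6099 and 8568 normalised counts and the CR libraries 2343, 3292, 4131, 4527 and 2730, with no overlap. Its log2 change was −1.20 ± 0.16 (limma, adjusted p = 0.00121), and the call held in all 19 alternatives run. Its conjunctiva AL libraries held 9531, 8770, 7440 and 7257 and the CR libraries 3813, 4168, 6334, 5345 and 4859, again with no overlap, for a log2 change of −0.76 ± 0.16 (limma, adjusted p = 0.0599). That p was 0.00883 without CR replicate 3 and 0.0457 without CR replicate 5, 0.0147 with quantile normalisation and 0.00505 with array weights. Those were the only alternatives with a conjunctiva call, 2 of 9 fits without 1 library and 2 of 9 others, and the remaining 7 of each gave none. In that list 13 of 22 genes were tested in the cornea (5 higher, 8 lower, median −0.28) and 16 in the conjunctiva (8 higher, 8 lower, median −0.12). Of those lower in the cornea, *Hoxb1* had means of 27.9 normalised counts under AL and 2.39 under CR. It passed the filter of 10 only through its AL libraries, which fixed its direction, so the cornea count and median are a description only.

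Other genes of the same list did not pass. *Dkk2*, a secreted Wnt antagonist, had conjunctiva AL libraries of 693, 704, 614 and 808 normalised counts and CR libraries of 332, 365, 467, 591 and 356, which did not overlap. Its log2 change there was −0.77 ± 0.18 (limma, adjusted p = 0.0889, and 0.0307 without CR replicate 4). It was called in 1 of 9 fits without 1 library and in 1 of 9 other alternatives, and the remaining 8 of each gave no call. *Nr2f2*, the orphan receptor COUP-TFII, had a conjunctiva change of 0.45 ± 0.15 (adjusted p = 0.280) and a cornea change of 0.09 ± 0.10. *Rarres1* had changes of 1.73 ± 0.62 in the cornea (adjusted p = 0.169) and 1.26 ± 0.78 in the conjunctiva. *Meis1*, a homeobox gene, had −0.28 ± 0.13 and 0.30 ± 0.17 (adjusted p = 0.242 and 0.624).

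In the list of retinol uptake, binding and storage, 7 genes were tested in each tissue and *Scarb1* was called in the cornea. It encodes a lipoprotein receptor that also takes up carotenoids. The cornea AL libraries held 267, 198, 164, 233 and 198 normalised counts and the CR libraries 325, 292, 383, 325 and 319, with no overlap (all CR above all AL libraries for 2.08% of all genes there) and a log2 change of 0.65 ± 0.16 (limma, adjusted p = 0.0482). The call was lost under 12 of 19 alternatives, with an adjusted p of up to 0.213, and among the fits without 1 library it held only without AL replicate 4 or CR replicate 1. The conjunctiva change was −0.11 ± 0.21, and the difference between tissues, 0.76 ± 0.27, did not pass (adjusted p = 0.469). *Rbp2*, an intracellular retinol carrier, had cornea AL libraries of 1457, 1451, 1253, 584 and 1441 normalised counts and CR libraries of 863, 569, 469, 907 and 471. The single low AL library was replicate 4. Its log2 change was −0.90 ± 0.29 (adjusted p = 0.155), −1.15 without AL replicate 4 (adjusted p = 0.0042) and −0.28 with the zero-gene share as a model term. *Bco2*, a carotenoid-cleaving enzyme, had −1.41 ± 0.55 in the cornea (adjusted p = 0.195) and −0.96 ± 0.97 in the conjunctiva, which was −0.23 without CR replicate 1. *Stra6l* had −1.54 ± 0.73 in the cornea (limma, adjusted p = 0.276), with means of 22.9 normalised counts under AL and 9.73 under CR. It passed the filter of 10 there only through its AL libraries, which fixed its direction, so that change is a description only. The conjunctiva change of *Stra6l* was −0.85 ± 0.97, and −0.0475 without CR replicate 2. The storage enzyme gene *Lrat* and the plasma carrier gene *Rbp4* had 0 reads in all cornea libraries.

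The retinol and retinal oxidoreductases gave no call in either tissue, with 9 of 19 tested in the cornea (median 0.12) and 12 in the conjunctiva (median 0.42, 9 higher and 3 lower). Of those higher, *Rdh12*, *Rdh9* and *Sdr16c5* had conjunctiva AL means of 7.36, 8.60 and 0 normalised counts. They passed the filter of 10 only through their CR libraries, which fixed their direction, so the count and median are a description only. *Adh7*, an alcohol dehydrogenase that oxidises retinol, had conjunctiva AL libraries of 9703, 10272, 9660 and 10708 normalised counts and CR libraries of 13477, 14609, 12914, 18239 and 27638. All CR libraries lay above all AL libraries, as for 1.92% of all genes in that tissue (log2 change 0.72 ± 0.19; limma, adjusted p = 0.153). The cornea change of *Adh7* was −0.02 ± 0.11, and the difference between tissues was −0.74 ± 0.23 (adjusted p = 0.387). *Adh1*, another such enzyme, had a conjunctiva change of 0.45 ± 0.16 (adjusted p = 0.326) and a cornea change of 0.05 ± 0.09. *Rdh12* had CR values of 20.5, 16.2, 12.6, 17.4 and 152 normalised counts in the conjunctiva and AL values of 8.84, 0, 9.68 and 10.9. The high library, CR replicate 5, was also the one with the most reads of the 3 meibomian gland markers *Awat2*, *Elovl3* and *Far2*, 359 RPM against 0 to 12.4 in the other 8. That library also held the highest conjunctiva values of *Adh7*, of *Aldh1a1* (2473) and, of the 9 retinoid genes, of *Rdh10* (534), *Crabp2* (298) and *Rarg* (2593) but not of the rest. The part of the gland reads in these values was not tested. In the cornea *Rdh12* was below the filter and untested, with the lower mean under CR (12.4 ± 8.78 under AL and 1.74 ± 1.43 under CR). *Rdh16*, one of a cluster of close paralogs whose reads may be split, had 0.84 ± 0.31 in the cornea (adjusted p = 0.177) and 0.38 ± 0.20 in the conjunctiva. *Rdh13* had 0.41 ± 0.25 and 0.15 ± 0.26, and *Dhrs4* had −0.62 ± 0.26 and −0.15 ± 0.19.

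**Figure D5:**
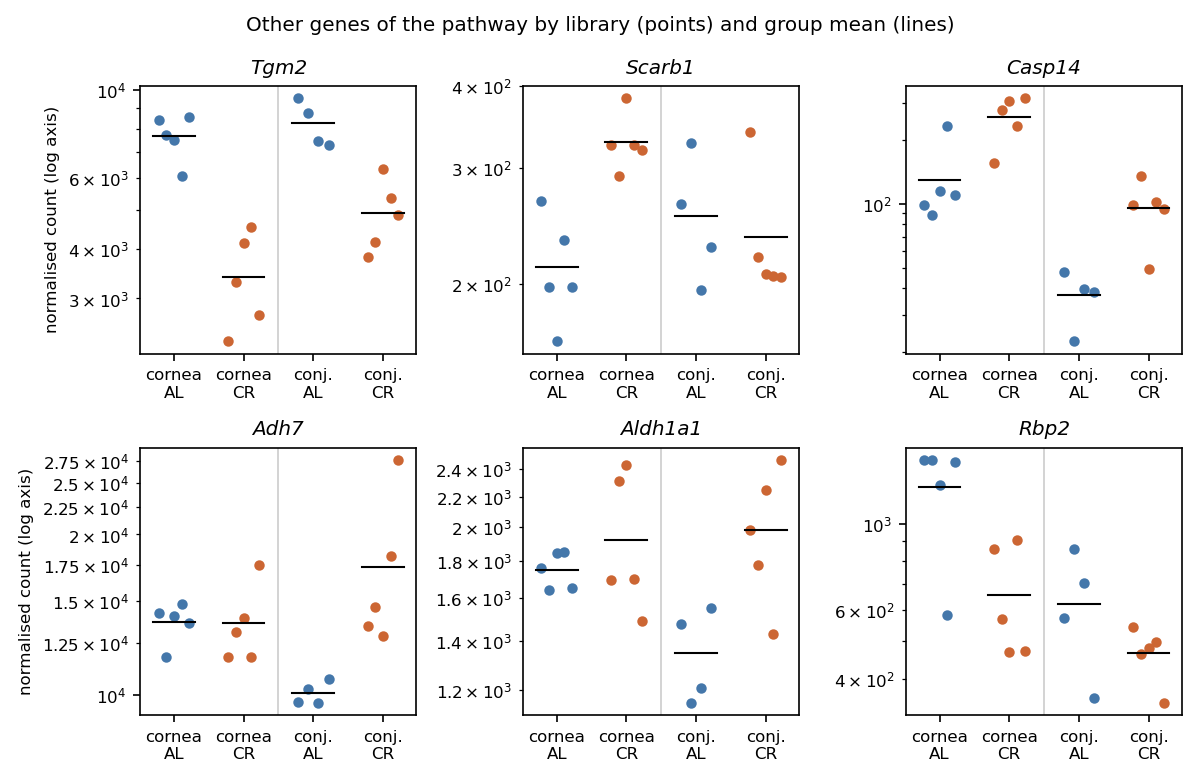
Normalised counts (log axis) of 6 further genes in each library, with AL points in blue, CR points in orange and the group mean as a line. For *Tgm2* the CR points lie below all AL points in both tissues, for *Scarb1* they lie above them in the cornea, and for *Adh7* above them in the conjunctiva.

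Genes of retinoic acid synthesis, carriage and breakdown gave no call, with 2 of 7 tested in the cornea and 4 in the conjunctiva. *Aldh1a1*, which makes retinoic acid, had conjunctiva AL libraries of 1477, 1151, 1206 and 1551 normalised counts and CR libraries of 1985, 1775, 2250, 1431 and 2473. Only CR replicate 4 fell among the AL libraries (log2 change 0.54 ± 0.17; limma, adjusted p = 0.242), and the cornea change was 0.11 ± 0.13. *Aldh1a2*, the related enzyme of mesenchymal cells, had −0.95 ± 0.36 in the conjunctiva (adjusted p = 0.387), and the carrier gene *Crabp1* had −0.71 ± 0.29 (adjusted p = 0.452). In the cornea *Aldh1a2* was below the filter and untested, with means of 14.0 ± 7.50 under AL and 2.01 ± 2.28 under CR. *Fabp5*, a carrier of fatty acids and retinoic acid, had −0.76 ± 0.37 in the cornea (adjusted p = 0.326) and −0.30 ± 0.55 in the conjunctiva.

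The 8 fibroblast markers all had lower means under CR in the conjunctiva, where *Dhrs3*, *Tgm2*, *Aldh1a2*, *Crabp1* and *Dkk2* did too. Their summed level ran from 3327 to 5090 RPM under AL and from 1939 to 3890 under CR, 2 of the 8 (*Col1a1* and *Col3a1*) were called lower, and their part in these values was not tested. In bulk tissue, fewer cells of a type and less RNA per cell cannot be told apart. In the scraped cornea the same markers summed to 80.1 to 167 RPM under AL and 38.0 to 178 under CR. The summed level of 5 macrophage markers did not overlap between diets in the conjunctiva, with 188 to 245 RPM under AL and 115 to 176 under CR, and all 5 were lower, with 0 called. In the cornea the sums did not overlap either, by a narrow margin, with 23.35 to 31.7 RPM under AL and 9.16 to 23.30 under CR. There 1 of the 3 tested was called lower (*C1qa*).

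Corneal epithelium markers, among them the corneal keratin gene *Krt12*, summed to 39293 to 60447 RPM in cornea libraries and 7380 to 9382 in conjunctiva libraries. Goblet cell markers summed to at most 8.62 RPM in cornea libraries and to 269 to 694 in conjunctiva libraries. The summed level of the conjunctival epithelium markers (*Krt4*, *Krt13* and *Krt19*) did not separate the tissues, at 2172 to 5294 RPM in cornea libraries and 2076 to 5531 in conjunctiva libraries. Taken singly under AL, *Krt4* stood at 291 ± 101 RPM in the cornea and 1223 ± 414 in the conjunctiva. *Krt19* stood at 148 ± 39.8 and 629 ± 88.1, while *Krt13*, the largest part of the sum, had 2348 ± 527 and 1852 ± 910. The pigment epithelium gene *Rpe65*, which serves the retina's own retinoid cycle, had 0 reads in all 19 libraries. Lacrimal gland markers reached 2801 RPM in cornea AL replicate 1 and at most 78.4 in the other cornea libraries. Without that library the cornea log2 change of *Dhrs3* was −0.88. Library depth was 10354125 to 14681223 counted reads for cornea and 10726717 to 14433441 for conjunctiva.

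The RXR partners and receptor cofactors gave no call. *Ncoa1*, a coactivator of nuclear receptors, had cornea AL libraries of 407, 414, 454, 494 and 442 normalised counts and CR libraries of 586, 609, 655, 619 and 593, with no overlap. Its log2 change of 0.47 ± 0.12 had an adjusted p of 0.0482 in limma and a fold below 1.5, and the conjunctiva change was 0.13 ± 0.15. *Rxra*, the common partner of the RARs, had −0.20 ± 0.13 in the cornea and 0.20 ± 0.14 in the conjunctiva (adjusted p = 0.418 and 0.692). Changes of *Crebbp*, *Ncor1* and *Ppard* lay between −0.24 and 0.33 in both tissues, and none passed.

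Vitamin A shortage is known for its effect on keratinising and mucosal genes, and both lists were read for that reason. *Casp14*, a protease of the cornified layer, was called higher under CR in the cornea. Its cornea AL libraries held 99.0, 88.5, 115, 232 and 110 normalised counts and the CR libraries 156, 277, 306, 233 and 315, with AL replicate 4 again among the CR libraries. The log2 change was 1.04 ± 0.25 (limma, adjusted p = 0.0476), and the call was lost under the same number of alternatives and held without the same 2 libraries, with an adjusted p of 0.426 and a change of 0.44 when the zero-gene share was a model term. In the conjunctiva the CR libraries, at 98.4, 135, 49.2, 102 and 94.2, lay above the AL libraries at 47.4, 22.4, 39.8 and 38.2 (log2 change 1.33 ± 0.35; limma, adjusted p = 0.150). *Ivl*, the involucrin gene, had −0.62 ± 0.31 in the cornea (adjusted p = 0.290), *Sprr1a* had −0.71 ± 0.23 (adjusted p = 0.121), and the list median was −0.41 in the cornea (8 of 16 tested, 3 higher and 5 lower) and 0.12 in the conjunctiva (8 tested, 5 higher and 3 lower). Of the listed genes lower in the cornea, *Krt2* had means of 29.2 normalised counts under AL and 6.49 under CR. It passed the filter of 10 only through its AL libraries, which fixed its direction, so the cornea count and median are a description only. *Krt10* had −0.20 ± 0.19 and 0.20 ± 0.24, and *Tgm1* had 0.17 ± 0.22 and 0.82 ± 0.46.

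Among the mucosal genes, 10 of 14 were tested in the cornea (8 higher and 2 lower, median 0.17) and 13 in the conjunctiva (8 higher and 5 lower, median 0.01), with no call. *Muc5b*, a gel-forming mucin gene, had conjunctiva means of 352 ± 69.8 normalised counts under AL and 714 ± 334 under CR, with no overlap of the libraries (log2 change 0.93 ± 0.28; limma, adjusted p = 0.244). The other goblet cell markers changed less there, with −0.23 ± 0.30 for *Muc5ac*, −0.13 ± 0.17 for *Agr2* and 0.16 ± 0.34 for *Spdef*. The summed level of the 4 markers had a conjunctiva median of 519 RPM under AL and 421 under CR. *Krt4*, a keratin of moist epithelia, had a cornea mean of 3360 ± 1105 under AL and 6628 ± 2617 under CR (log2 change 0.96 ± 0.29; adjusted p = 0.137). *Krt18* had 0.67 ± 0.19 in the conjunctiva (adjusted p = 0.191) and *Krt19* had −0.39 ± 0.18 (adjusted p = 0.521). *Krt8* had 0.64 ± 0.31 and *Pigr*, the antibody transporter of mucosal epithelium, −0.83 ± 0.32 in the cornea (adjusted p = 0.281 and 0.195).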

How the data were processed

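Total RNA from mouse cornea and conjunctiva was sequenced as 19 libraries. The deposited values are log2(normalised count + 1), a log2 scale that the authors made by dividing each gene's read count by a size factor for its library, with each tissue scaled in a table of its own; the submitters' processing notes name DESeq2. All of the values (100%) gave back whole reads within 0.02 of a read, and RPM were computed from these. The labels name a stranded mRNA kit and the methods an oligo(dT) kit. The build is mm10 in the methods and GRCm39 in the processing notes, so coordinates are those of GRCm38 in RefSeq and GENCODE. Strand use in counting is not given in the sources used here. Levels were not compared between genes, apart from the ratio of *Rdh10* to *Dhrs3* reads.

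Each table held 24557 rows, of which 5 with a repeated symbol were left out. The diet was tested in each tissue with limma 3.58.1 in R 4.3.3 (trend and robust variance, Benjamini-Hochberg adjustment over all genes) for genes with a mean of at least 10 normalised counts. A scarce gene could pass that filter through the libraries of a single diet, which fixes the direction of its change. Folds are on the log2(normalised count + 1) scale, which understates changes of low genes. The difference between tissues was the cornea log2 change minus the conjunctiva log2 change, from separate limma fits. It was divided by its standard error for a t-test, with Benjamini-Hochberg adjustment over all genes tested in both tissues. The model was tested on simulated data. The genes named from each list are all called genes and, where fewer than 3 were called, those of smallest unadjusted p up to 3 per tissue. The text also names genes at 0 reads, defining markers and genes that passed the filter through a single diet. The 9 genes, the lists and the rules were chosen with earlier results of these data known. Listed symbols with no row in the tables were not analysed here. The number of libraries limits the precision, and a floor of 3 reads covers counting error only. Alternatives were other pseudocounts and filters, quantile normalisation, array weights, the zero-gene share as a model term, a replicate block, voom on the recovered reads and leaving out each library.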

Additional observations from a re-analysis of the deposited data

Results flagged for a closer look

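Among the 9 retinoid genes, 6 of 36 sets of library values (1 gene in 1 group) held a value far from the others of its group, by Dixon's criterion at the 95% level. Chance marks about 1 in 20 sets, or 1.8 of 36, and genes of 1 library are not independent. All 6 were the highest value of a cornea group, and they came from 3 libraries. In AL replicate 4 these were *Rara* at 113 and *Rarg* at 3497 normalised counts. In AL replicate 3 they were *Rarb* at 42.6 and *Crabp2* at 17.5. In CR replicate 7 they were *Crabp2* at 72.4 and *Stra6* at 36.2. No value of *Dhrs3*, *Rdh10*, *Aldh1a3* or *Cyp26b1* and no conjunctiva value of the 9 genes met the criterion.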

How the results depend on the processing

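The log2 change of *Dhrs3* lay within −0.88 and −0.67 (cornea) and within −0.67 and −0.58 (conjunctiva) under all alternatives run, and none of them called any of the other 8 retinoid genes. The genes called in the cornea (150) numbered 705 with array weights, 62 with the zero-gene share as a model term and 99 with voom, and 53 to 536 when 1 library was left out, the highest without AL replicate 4. In the conjunctiva (50) they numbered 149 with array weights and 26 to 127 when 1 library was left out, the highest without CR replicate 3. Listed genes called in the cornea (3) were 8 with array weights, 1 with no filter, with that term or with voom, and 1 to 6 when 1 library was left out. In the conjunctiva (0) they were 2 with array weights, 1 with quantile normalisation or that term, and 0 to 2 when 1 library was left out. Genes whose diet change differed between tissues (2) numbered 0 to 7 when 1 library was left out.

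Same-numbered AL and CR libraries of the same tissue did not deviate together (correlations of −0.30 to 0.29 for cornea, −0.06 to 0.05 for conjunctiva). Whether same-numbered cornea and conjunctiva libraries of a diet deviated together was not examined. With the replicate block, 54 genes were called in the cornea and 12 in the conjunctiva, and 1 listed gene in the cornea.

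Without 1 library, calls also appeared in the cornea for *Rbp2*, *Dhrs4* and *Rarres1* (AL replicate 4), for *Rarres1* and *Pigr* (CR replicate 7) and for *Sprr1a* (CR replicate 4), and in the conjunctiva for *Tgm2* and *Casp14* (CR replicate 3), *Tgm2* (CR replicate 5) and *Dkk2* (CR replicate 4).

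Changes of sign were limited to values that did not pass the test. With the zero-gene share in the model, the cornea log2 change was 0.24 for *Aldh1a3*, −0.0037 for *Adh1*, 0.0052 for *Krt10*, −0.0185 for *Nr2f2* and −0.17 for *Tgm1*, and the conjunctiva change was −0.11 for *Rara*, 0.0432 for *Dhrs4*, −0.0420 for *Krt4*, 0.0222 for *Ppard* and −0.0116 for *Rdh13*. With quantile normalisation it was 0.13 for *Rarb* and 0.0392 for *Adh7* in the cornea, and 0.0589 for *Stra6* in the conjunctiva. *Rarb* was 0.11 in the cornea with a pseudocount of 10. With array weights, *Dkk2* was −0.0679 in the cornea, and *Aldh1a3* 0.0076 and *Krt8* 0.0365 in the conjunctiva. With the block, *Krt19* was −0.0214 in the cornea and *Stra6* 0.16 in the conjunctiva. When 1 library was left out, cornea changes ran from −0.22 to 0.0301 for *Aldh1a3*, −0.68 to 0.37 for *Rarb*, −0.74 to 0.0185 for *Stra6*, −0.11 to 0.0306 for *Adh7*, −0.13 to 0.57 for *Dkk2* and −0.0460 to 0.75 for *Krt18*. Conjunctiva changes ran from −0.35 to 0.27 for *Aldh1a3*, −0.0059 to 0.40 for *Rara*, −0.32 to 0.0104 for *Rarb*, −0.78 to 0.26 for *Crabp2*, −0.28 to 0.16 for *Stra6*, −0.61 to 0.17 for *Fabp5*, −0.10 to 0.15 for *Krt8*, −0.35 to 0.0457 for *Pigr*, −0.25 to 0.0202 for *Scarb1* and −0.86 to 0.14 for *Sprr1a*. The cause of these shifts was not tested.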
